A study of Mus musculus with 23 samples.

Results

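Mag, Sox10, Slc4a4, Gpr37l1 and C1qc are genes of the glia of the brain. They were taken by symbol from the probe tables of the arrays, to stand for oligodendrocytes (Mag and Sox10), astrocytes (Slc4a4 and Gpr37l1) and microglia (C1qc). They are 5 of the 8726 genes named on the arrays. Slc4a4 has 2 probes, so that 6 of 8997 probes are described, where a probe is all spots of 1 GenBank entry. The RNA measured was that of prefrontal cortex. Male Balb/c mice aged 8 weeks were killed 18, 72 or 192 h after a subcutaneous injection. The tumour group had received 1000000 cells of the mouse colon carcinoma line CT-26.WT in 300 ul PBS, and the control group the same volume of PBS alone. On each array RNA of both groups was hybridised together, one in Cy3 and the other in Cy5, and a probe's value is how far tumour lay above or below PBS, as a log2 ratio. The series holds 23 arrays of 11 biological replicates. Whether a replicate was 1 mouse or several is not given in the sources used here, and p values measure only the spread between these samples.

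Oligodendrocytes wrap axons in myelin. Mag, the myelin-associated glycoprotein, lies on the innermost wrap facing the axon and belongs to the sialic acid-binding Siglec family, and Sox10 is the transcription factor that oligodendrocytes need to mature and to switch on myelin genes. Astrocytes buffer ions and acidity around synapses. Slc4a4 encodes a sodium bicarbonate cotransporter by which they move base across the membrane, and Gpr37l1 is an orphan G protein-coupled receptor found mostly in astrocytes. Microglia are the resident macrophages of the brain and its main makers of C1q, the recognition molecule that starts the classical complement pathway. C1qc encodes 1 of the 3 chains of C1q, beside C1qa and C1qb.

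Of the 23 arrays, 16 were used. On the other 7 the brightness of the probes followed that on other print layouts hardly at all (mean Spearman rho 0.00857 to 0.0495, against 0.188 to 0.503 on those used), so their probe names were not borne out. Within its own print layout, the array used for 72 h replicate 3 had a mean rho of only 0.062. The other arrays used of that layout had 0.206 to 0.436, and its swapped partner, left out, had 0.079. The probe names are thus less well borne out for 72 h replicate 3. The limit on rho removed replicates 1 and 2 at 72 h whole. What was left was 3 replicates at 18 h (numbered 3 to 5), 2 at 72 h (3 and 4) and 4 at 192 h (1 to 4). Among these, poly(A) RNA was used for 192 h replicates 1 and 2 and total RNA for the rest. The 16 arrays had 1821 to 8638 usable spots per scanner file, with a median spot signal of 1.80 to 5.32 times the local background. In 1 of 48 scanner files, of the Cy3 tumour array of 192 h replicate 3, the ratios hardly followed the authors' deposited score (r = 0.04, against 0.46 to 0.86 in the others). Leaving that file out turned the sign of no member. Over the 32130 probe values measured in both orientations of a dye swap, the ratio had the same sign on both arrays in 45.4%.

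By symbol, 11 of 27 oligodendrocyte genes, 12 of 28 astrocyte genes and 14 of 27 microglia genes were on the arrays, and each of these gave a usable spot on at least 1 array. Mbp, Mog, Gfap, Aqp4, Csf1r and Cx3cr1, defining markers of the 3 cell types, were in the lists but gave no tested probe. Gfap and Aqp4 were not among the 12 astrocyte genes on the arrays. The median brightness of a list, as a percentile among the named probes of an array, had a median over arrays of 64.0 for oligodendrocytes, 62.4 for astrocytes, 36.7 for microglia, 70.0 for neurons and 26.5 for blood cells. These percentiles describe the lists one by one, since they also carry each probe's own binding strength.

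The 6 probes were faint to moderate. Spot signal over local background in PBS cortex had a median over arrays of 4.63 for Mag, 3.40 for the NM_018760 probe of Slc4a4, 2.62 for Gpr37l1, 2.51 for Sox10, 2.49 for C1qc and 2.08 for the AF141934 probe of Slc4a4. In tumour cortex the medians were 3.93, 3.83, 2.41, 2.85, 2.50 and 1.91 in that order. The plot of brightness shows how far single arrays spread around these medians. A level is not compared between probes here, because each probe binds its own target with its own strength. The NM_018760 probe of Slc4a4 gave a ratio on 15 of the 16 arrays, Mag and Gpr37l1 on 14, Sox10 on 13, C1qc on 11 and the AF141934 probe of Slc4a4 on 10.

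**Figure D1:**
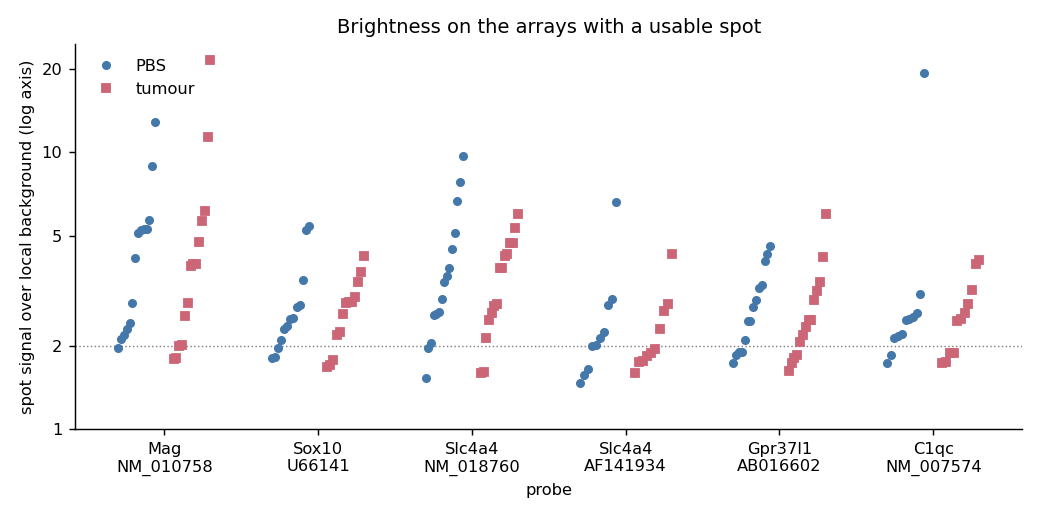
Spot signal over local background (log axis) of each probe on every array used that had a usable spot, with PBS cortex as circles and tumour cortex as squares, and the dotted line at a signal of 2 times the background. The highest values are 21.5 for Mag in tumour cortex and 19.4 for C1qc in PBS cortex, and the AF141934 probe of Slc4a4 has 6 of 10 PBS values above the line.

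Tests were run on all probes together and adjusted over all of them, and none of the 6 probes passed at any time. The threshold was an adjusted p of 0.05 by limma with Benjamini-Hochberg adjustment. At 18 h 5733 probes were tested and 0 called (0%), while 342 had an unadjusted p under 0.05. At 72 h the limma test called 1 of 4440 (0.0225%), and at 192 h 1 of 6465 (0.0155%). A probe needed 2 replicates with a value at a time to be tested. At 18 h this was met by both probes of Slc4a4 and by Gpr37l1, at 72 h by Mag, Sox10, Gpr37l1 and the NM_018760 probe of Slc4a4, and at 192 h by all 6. Errors beside fitted ratios are standard errors, and intervals cover 95%. The fit also takes out the dye orientation, which touches the replicates seen in 1 orientation alone (72 h replicate 3 and 192 h replicates 1 and 2). Where 192 h replicates 1 and 2 both have a value, the dye term rests mostly on the difference between them. In such bulk tissue a change in the number of cells of a type and a change in RNA per cell cannot be told apart.

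**Figure D2:**
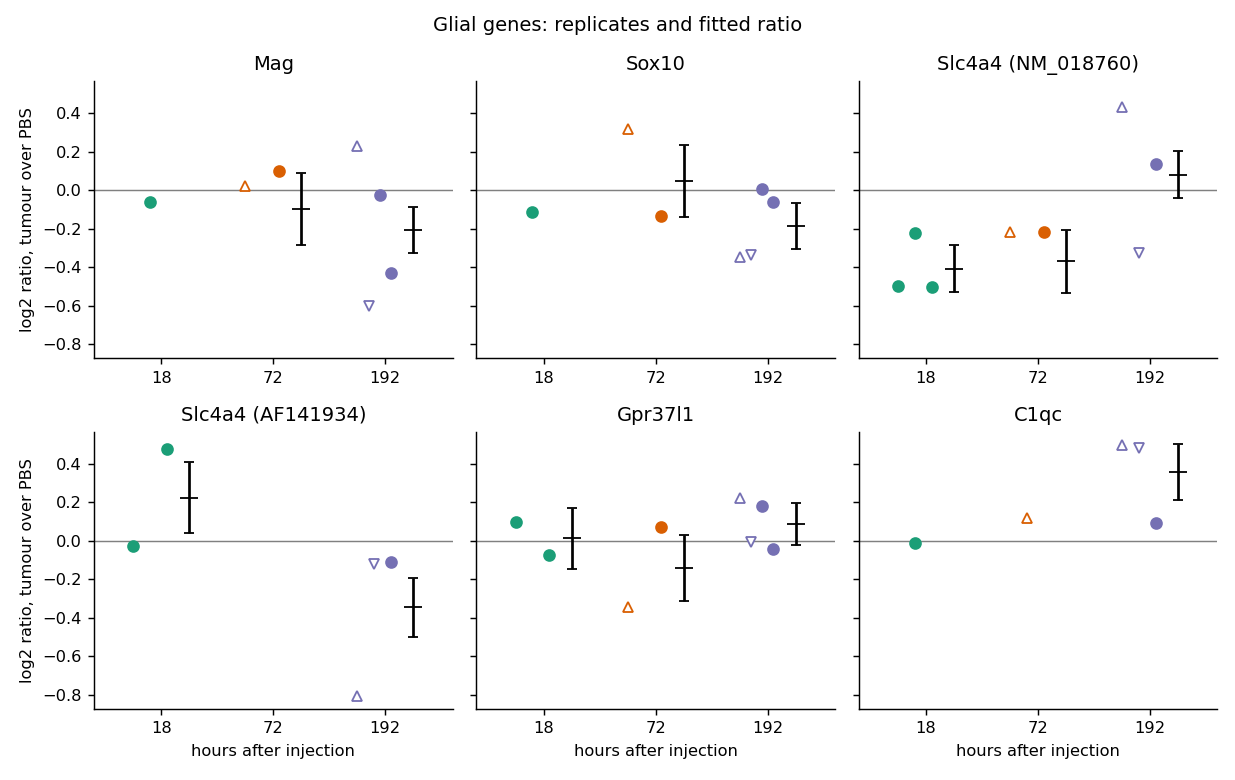
Log2 ratio of tumour over PBS of the 6 probes at 18, 72 and 192 h. Filled circles are replicates measured as a dye swap, open triangles replicates with the tumour RNA in Cy5 (pointing up) or Cy3 (pointing down) alone, and black bars the fitted ratio ± standard error where at least 2 replicates allow a test. The NM_018760 probe of Slc4a4 has all 3 replicates at 18 h below 0, from -0.50 to -0.22, and C1qc all 3 replicates at 192 h above 0, from 0.09 to 0.50.

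Mag lay on both sides of 0. At 192 h replicate 1 gave a log2 ratio of 0.23, replicate 2 of -0.60, replicate 3 of -0.03 and replicate 4 of -0.43. The highest and the lowest were the poly(A) replicates, which also have opposite dye orientations. The fitted ratio was -0.21 ± 0.12 (n = 4, limma adjusted p = 0.999), with an interval from -0.48 to 0.07. It was -0.05 without background correction, -0.06 on the authors' deposited score (a log ratio whose base is not settled, so that its size is not comparable) and -0.29 to -0.13 with single replicates left out. At 72 h replicate 3 gave 0.02 and replicate 4 gave 0.10. At 18 h replicate 5 gave -0.06, and the other replicates had no usable pair of arrays. At 72 h the fit put Mag at -0.10 ± 0.19 although both replicates were above 0, because the dye term shifts replicate 3. Without that term the value was 0.06.

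The swapped arrays of Mag opposed each other more often than not. In 18 h replicate 5 the ratio was -0.51 with tumour RNA in Cy3 and 0.39 with tumour RNA in Cy5. In 192 h replicate 3 it was 0.45 and -0.50. Only 192 h replicate 4, with -0.15 and -0.72, had the same sign on both arrays, in 1 of 4 such pairs. The means of the other 3 pairs average larger, opposed values. The -0.72 and the -0.50 each came from a spot usable in 1 of 3 scanner files. For the -0.72 the signal was 1.79 times the background in tumour and 1.96 times in PBS cortex.

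A stretch before the start of Mag is shown because Sox10, another of the genes described, is known to act on myelin genes. The RefSeq promoter table (assembly GRCm38.p6) holds 3 starts for Mag. The capitals mark CTTTGT, the reverse complement of ACAAAG, a core form of the sequence that SOX proteins bind. The stretch lies at chr7:30914927-30915046, on the minus strand and written in the direction of transcription.

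Mag: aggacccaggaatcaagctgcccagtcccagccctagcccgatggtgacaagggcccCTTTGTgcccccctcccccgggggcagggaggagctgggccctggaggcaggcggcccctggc

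ACAAAG, searched on both strands in the 250 bases before each start, was found in 16.5% of 32851 promoters, so a match of this kind is common. It describes these letters only.

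Sox10 gave values near or below 0 at 192 h. Replicate 1 gave a log2 ratio of -0.35, replicate 2 of -0.34, replicate 3 of 0.01 and replicate 4 of -0.06, so that both poly(A) replicates were low and both total RNA replicates near 0. The fitted ratio at 192 h was -0.19 ± 0.12 (n = 4, limma adjusted p = 0.999), with an interval from -0.46 to 0.09. It was -0.0072 without replicate 1, -0.03 with total RNA alone, -0.06 without background correction and 0.13 with median centring. RNA type and print layout differ between these 2 pairs of replicates and cannot be told apart. At 72 h the ratio was 0.32 in replicate 3 and -0.13 in replicate 4, with a fitted value of 0.05 ± 0.19. At 18 h only replicate 5 had both orientations, at -0.11.

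Of the 4 swapped pairs of Sox10, only 72 h replicate 4 had the same sign on both arrays (-0.22 and -0.05). In 192 h replicate 4 the ratio was -0.42 with tumour RNA in Cy3 and 0.30 with tumour RNA in Cy5. A single array of 18 h replicate 4, with tumour RNA in Cy3, gave 2.67, far above the next highest Sox10 value of 0.32. Its swapped partner had no usable spot, so the value entered no test. Across the 7 replicates with a value for both, Mag and Sox10 had the same sign in 4 (Pearson r = 0.19, a description over replicates that share arrays).

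The other oligodendrocyte genes gave no call either. At 192 h, 6 of 8 measured probes of the list, Mag and Sox10 included, were lower, with a median of -0.11 against 0.01 over all probes, and 0 passed. The median was 0.04 with median centring in place of loess, so its side of 0 depends on the scaling. At 72 h 5 of 8 were higher (median 0.05) and at 18 h 4 of 6 (median 0.03, below 0 with median centring and with the authors' deposited score). Nkx2-2, a transcription factor of the lineage, stood at 0.31 ± 0.23 at 192 h, from replicates at 0.00 and 0.39. Mal, a proteolipid of compact myelin, stood at -0.14 ± 0.12 at 192 h, lower in 3 of 4 replicates. Tspan2, a tetraspanin of myelin sheaths, was at 0.24 ± 0.18 at 18 h. Siglec1 and Cd33, other Siglec genes that are known from macrophages and myeloid cells, were at -0.26 ± 0.19 and 0.33 ± 0.26 at 192 h. The Cd33 fit equals its replicate 4, since the dye term takes up replicate 2, which was at -1.21.

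**Figure D3:**
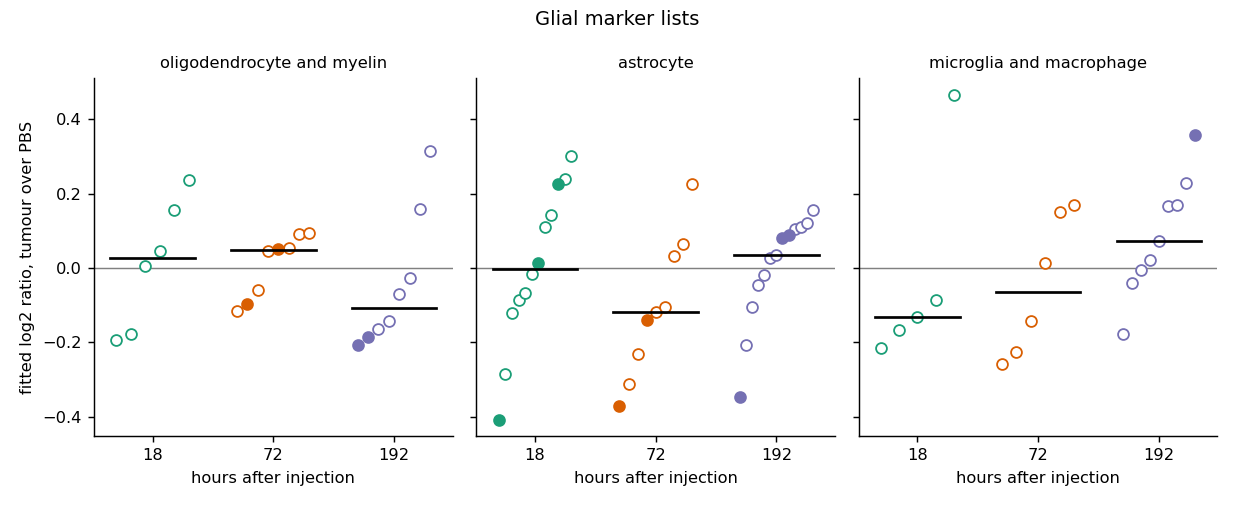
Fitted log2 ratio of tumour over PBS for the tested probes of the oligodendrocyte, astrocyte and microglia lists at 18, 72 and 192 h, with Mag, Sox10, Slc4a4, Gpr37l1 and C1qc filled and other genes open, and a black line at each median. The medians lie between -0.13 and 0.07, and 0 of the probes passed the test.

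Slc4a4 was the only gene of the 5 with an unadjusted p below 0.01. On its NM_018760 probe, 18 h replicate 3 gave a log2 ratio of -0.50, replicate 4 of -0.22 and replicate 5 of -0.50. All 3 replicates were below 0, and so were all 6 arrays behind them, from -0.92 to -0.07, in both dye orientations. The fitted ratio was -0.41 ± 0.12 (n = 3, limma adjusted p = 0.759), a fold of 0.754, with an interval from -0.68 to -0.13. It was -0.28 without background correction, -0.39 ± 0.23 with median centring in place of loess and -0.26 on the authors' deposited score. With dim spots left out, the probe had too few values at 18 h for a test. Each array of replicate 4 had a usable spot in only 1 scanner file. By p the main value ranked 51 of the 5733 probes tested at 18 h. It did not pass, and the share of all probes with an unadjusted p under 0.05 at this time was 5.97%.

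Later values of this probe were less even. At 72 h both replicates stood at -0.22, but the swapped arrays of replicate 4 were at 0.43 with tumour RNA in Cy3 and -0.87 with tumour RNA in Cy5. The fit gave -0.37 ± 0.17 at 72 h (adjusted p = 0.999), below both replicates, because the dye term shifts replicate 3. Without that term the value was -0.22, on the authors' deposited score it was -0.02, and leaving out single replicates gave -0.60 to -0.22. At 192 h replicate 1 stood at 0.43, replicate 2 at -0.33 and replicate 4 at 0.14, on both sides of 0, and the fitted value was 0.08 ± 0.12. The mean over the 3 times was -0.23 ± 0.08 (limma adjusted p = 0.999), lower in 6 of 8 replicates, in a comparison that called 0 of 3171 probes (0%, with 81 at an unadjusted p under 0.05).

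The difference between 192 h and 18 h was 0.49 ± 0.17 on the log2 scale (limma adjusted p = 0.981). That comparison called 1 of 4834 probes (0.0207%). The 3 replicates at 192 h overlapped those at 18 h, since replicate 2 at -0.33 lies inside the range from -0.50 to -0.22. The 192 h minus 72 h difference was 0.45 ± 0.21 (adjusted p = 1.00) and the 72 h minus 18 h difference 0.04 ± 0.21, in comparisons that called 1 of 4241 (0.0236%) and 0 of 3370 probes (0%, with 87 at an unadjusted p under 0.05). All replicates used at 18 and 72 h were total RNA on print layout 5, whereas 192 h replicates 1 and 2 were poly(A) RNA on layout 3. In the differences from 192 h, time, RNA type and layout cannot be fully told apart.

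The second probe of Slc4a4, AF141934, lay on the other side of 0 at 18 h. Its log2 ratio was -0.03 in replicate 3 and 0.48 in replicate 5, where both arrays were above 0. At 192 h replicate 1 stood at -0.81, replicate 2 at -0.12 and replicate 4 at -0.11, all below 0. The value of replicate 1 came from 1 array, in 1 dye orientation. Its spot was usable in 1 of 3 scanner files, with a tumour signal of 1.83 times the background. The fits were 0.23 ± 0.19 at 18 h (adjusted p = 0.890) and -0.35 ± 0.15 at 192 h (adjusted p = 0.999). The 192 h minus 18 h difference was -0.57 ± 0.24 (adjusted p = 0.981), opposite in sign to the 0.49 of the NM_018760 probe. The same mix of RNA types and layouts lies behind it. Without 192 h replicate 1, or without replicate 2, the 192 h value was -0.11 and the difference -0.34.

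In the 5 replicates with both probes, the pair had the same sign in 2. The widest gap was in 192 h replicate 1, where NM_018760 was 1.24 above AF141934, which was read there in 1 scanner file. The next was in 18 h replicate 5, where NM_018760 was 0.98 below. Opposite signs were not peculiar to Slc4a4. Over 263 genes with at least 2 probes, 51.6% of 1049 comparisons within a replicate had the same sign. The mean absolute difference over these comparisons was 0.33. For Slc4a4, NM_018760 minus AF141934 was -0.47, -0.98, 1.24, -0.21 and 0.25, so its widest gaps were larger than that mean. No direction for the Slc4a4 transcript as a whole can be read from these 2 probes.

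**Figure D4:**
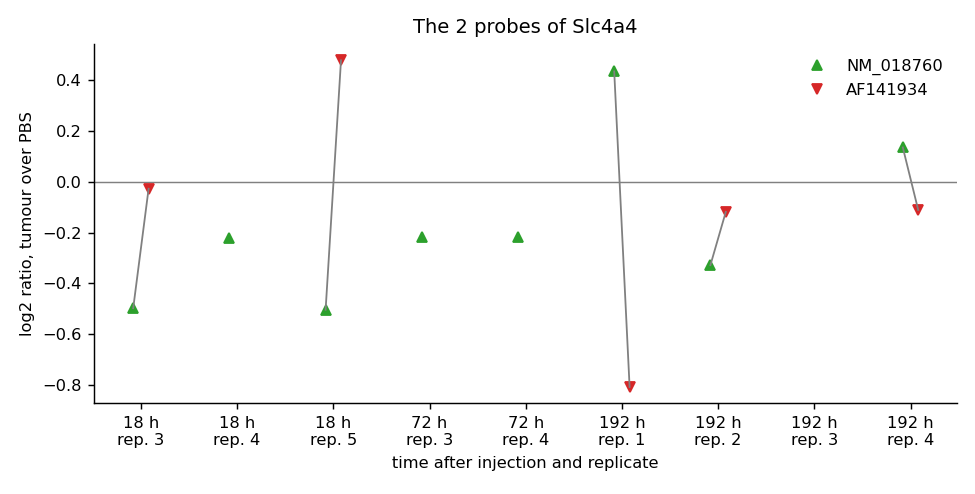
Log2 ratio of tumour over PBS of the 2 Slc4a4 probes in each replicate, joined by a line where both were measured. In 18 h replicate 5 and in 192 h replicates 1 and 4 the probes lie on opposite sides of 0. In 192 h replicate 1 the gap is 1.24, with AF141934 read there in 1 scanner file of 1 array.

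Slc4a4 is known to be transcribed from more than 1 start, and the RefSeq table holds 2 in assembly GRCm38.p6. Their last 120 bases before the start are shown because the 2 probes come from different database entries of the gene. Which transcripts each probe reads was not tested, and no capitals are set.

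Slc4a4 start 1: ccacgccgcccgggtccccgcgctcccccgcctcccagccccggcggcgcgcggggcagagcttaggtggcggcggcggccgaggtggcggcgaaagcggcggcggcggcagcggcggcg

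Slc4a4 start 2: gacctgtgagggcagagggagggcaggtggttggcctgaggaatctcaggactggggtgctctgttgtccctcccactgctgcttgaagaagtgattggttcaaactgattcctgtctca

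The former lies at chr5:88887140-88887259 and the latter at chr5:89027846-89027965, both on the plus strand. G and C make up 85.8% of the former and 55.8% of the latter.

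Values of neuronal markers stand beside the 18 h value of the NM_018760 probe. Of 6 tested neuron genes 5 were lower at 18 h, with a median of -0.34 against -0.02 over all probes, and 0 passed. The median was -0.14 with median centring and -0.15 on the authors' deposited score, there over 4 probes. The list median was 0.09 in replicate 3 (6 probes), -0.23 in replicate 4 (5 probes) and -0.70 in replicate 5 (7 probes). These medians do not rest on the same set of probes. The NM_018760 probe was at -0.50, -0.22 and -0.50 in the same order. Snap25, a protein of synaptic vesicle fusion and the lowest of the 6, stood at -0.65 ± 0.19. Nefl, the highest, stood at 0.20 ± 0.21. The part of these markers in the Slc4a4 value was not tested.

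Gpr37l1 had values on both sides of 0 at each time. At 18 h replicate 4 gave a log2 ratio of 0.10 and replicate 5 one of -0.07. At 72 h replicate 3 gave -0.34 and replicate 4 gave 0.07. The 4 replicates at 192 h were at 0.22, -0.01, 0.18 and -0.04. The fitted ratios were 0.01 ± 0.16 at 18 h, -0.14 ± 0.17 at 72 h and 0.09 ± 0.11 at 192 h. The mean over the 3 times was -0.01 ± 0.09, with an interval from -0.21 to 0.18, which leaves room for a change of that size either way. The limma adjusted p was 0.998 or above in all 4.

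The swapped arrays of Gpr37l1 had the same sign in 1 of 5 pairs, 192 h replicate 3, with 0.19 and 0.17. In 192 h replicate 4 they were at -0.40 and 0.31. Gpr37, its closest relative and a receptor of oligodendrocytes, was at 0.05 ± 0.16 at 18 h, -0.12 ± 0.17 at 72 h and 0.16 ± 0.11 at 192 h. Its replicates at 72 h were at 0.07 and 0.13, both above 0, and the dye term puts the fit below them. The poly(A) replicates of Gpr37 at 192 h stood far apart, at 0.70 and -0.40.

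The astrocyte list gave no common direction. At 18 h 6 of 12 probes were lower (median 0.00), at 72 h 6 of 9 (median -0.12) and at 192 h 5 of 13 (median 0.03), and 0 passed at each time. The 18 h median lay above 0 under each of 3 other scalings, and the 72 h and 192 h medians kept their sign. Dio2, the deiodinase by which astrocytes make active thyroid hormone, stood at 0.30 ± 0.12 at 18 h (limma adjusted p = 0.804), with 0.24, 0.31 and 0.35 in its 3 replicates, all above 0. Sox9, a transcription factor of astrocytes from the same family as Sox10, was at -0.29 ± 0.15 at 18 h and below 0 in all 8 replicates with a value, from -0.48 to -0.01. Ntsr2, a neurotensin receptor, was at 0.24 ± 0.14 at 18 h and 0.03 ± 0.10 at 192 h. Aldh1l1, a folate enzyme used as an astrocyte marker, was at -0.31 ± 0.21 at 72 h and 0.16 ± 0.13 at 192 h. Its replicates at 72 h were at 0.01 and -0.29, and the dye term puts the fit below them.

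C1qc was above 0 at 192 h. Replicate 1 gave a log2 ratio of 0.50, replicate 2 of 0.48 and replicate 4 of 0.09. The fitted ratio was 0.36 ± 0.15 (n = 3, limma adjusted p = 0.999), a fold of 1.28, with an interval from 0.01 to 0.70. The value was 0.12 without background correction and 0.12 with median centring in place of loess, and it was 0.03 on the authors' deposited score. With dim spots left out it could not be tested. It did not pass, and it rests on 1 residual degree of freedom, with the spread otherwise shared over probes. The 2 high values are the poly(A) replicates, of opposite dye orientation, and the total RNA replicate with a full swap is near 0. The arrays of replicate 4 opposed each other, at 0.51 with tumour RNA in Cy3 and -0.33 with tumour RNA in Cy5. A single usable array of 192 h replicate 3 gave -0.13 and entered no test.

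Before 192 h C1qc was measured in 2 replicates, at -0.01 in 18 h replicate 5 and 0.12 in 72 h replicate 3. The former is the mean of -0.54 and 0.51 on its swapped arrays. With 1 replicate each, these times were not tested. Over the 11 arrays used, the spot lay at the 10.5th to 59.4th percentile of brightness, with a median at 20.6.

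C1qb, another chain of the same molecule, had the sign of C1qc in 3 of the 5 replicates with both. At 192 h it was -0.34 in replicate 1 and -0.12 in replicate 2, the replicates in which C1qc was high, and 0.20 and 0.10 in replicates 3 and 4. In the replicates of like sign the C1qb and C1qc ratios were -0.09 and -0.01 (18 h replicate 5), 0.11 and 0.12 (72 h replicate 3) and 0.10 and 0.09 (192 h replicate 4). Its fitted ratio was -0.04 ± 0.11. C1ra, a protease of the C1 complex, was at 0.22 ± 0.12 at 192 h with its poly(A) replicates at 0.99 and -0.53. Masp1, a protease of the lectin pathway, was at -0.31 ± 0.13 at 192 h (limma adjusted p = 0.999), lower in 3 of 3 replicates. C3ar1, the receptor of complement fragment C3a, was at 0.44 ± 0.19 at 18 h, from 0.75 and 0.13. Of the complement genes tested at 192 h, C1qc included, 2 of 4 were higher and 0 passed.

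In the microglia list 6 of 9 probes, C1qc included, were higher at 192 h (median 0.07 against 0.01 over all probes). C1qc was the highest of them. At 72 h 3 of 6 were higher (median -0.06, above 0 with median centring and with the authors' deposited score). At 18 h 1 of 5 was higher (median -0.13). The 192 h and 18 h medians kept their sign under the other 3 scalings. With the deposited score the 18 h median rested on only 2 probes. Aif1, which encodes the microglial protein Iba1, was at -0.17 ± 0.15 at 18 h and 0.23 ± 0.15 at 192 h, with replicates of -0.16, 0.24 and 0.21 at 192 h. P2ry12, the purinergic receptor of resting microglia, was at 0.17 ± 0.16 at 192 h and higher in 3 of 4 replicates. Laptm5, a lysosomal protein of blood-derived cells and microglia, was at -0.26 ± 0.20 at 72 h. Ly86, a partner of a toll-like receptor homologue, was at 0.47 ± 0.27 at 18 h, from 1.16 and -0.23. None of them passed the test.

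Over all 6 probes, 23 replicate values came from a full dye swap. In 7 of 23 the ratio had the same sign in both orientations, and 3 of these 7 were the 18 h replicates of the NM_018760 probe of Slc4a4. In 16 of 23 the departure of the 2 arrays from their mean was larger in size than the mean itself. The median size of the departure was 0.20 and that of the mean 0.10 on the log2 scale. On the array with tumour RNA in Cy5 the departure changed sign within each probe but the NM_018760 probe of Slc4a4. For Mag it was 0.45 in 18 h replicate 5 and -0.47 in 192 h replicate 3. For C1qc it was 0.52 in 18 h replicate 5 and -0.42 in 192 h replicate 4. How much of the departure was due to dye was not tested. C1qc had 0 of 2 pairs of the same sign, and the AF141934 probe of Slc4a4 1 of 3.

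**Figure D5:**
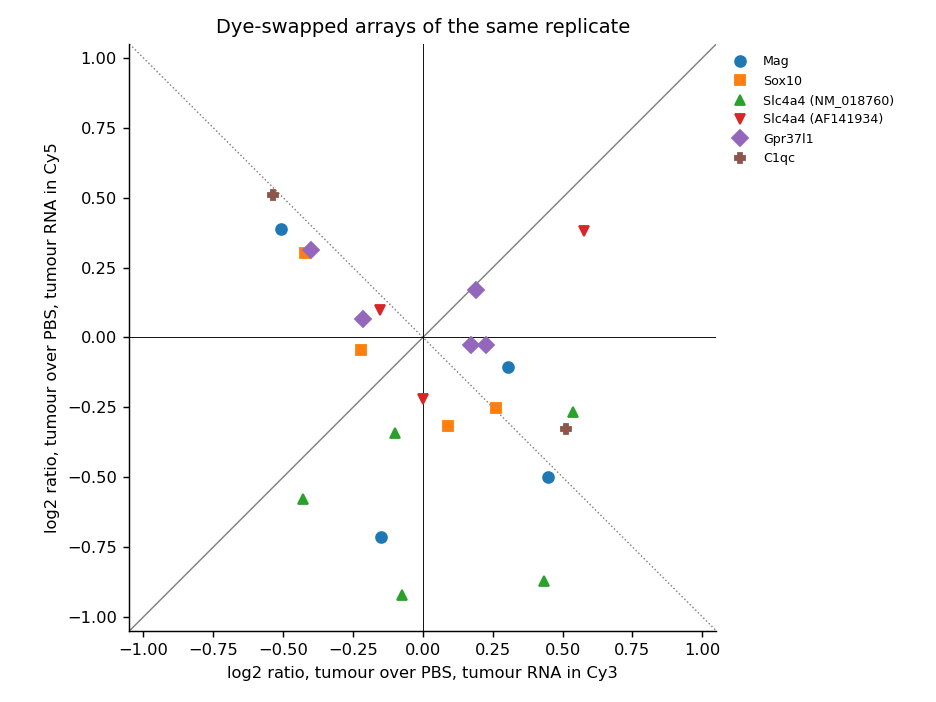
Each point is 1 probe in 1 dye-swapped replicate, with the log2 ratio of tumour over PBS on the array with tumour RNA in Cy3 (x) against that on the array with tumour RNA in Cy5 (y). The solid diagonal marks equal ratios and the dotted one opposite ratios of equal size. The points lie nearer the dotted line than the solid one in 16 of 23 cases.

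The probes whose ratios ran most like those of each member over the replicates were not in the glial marker lists used here. They were chosen as the 3 highest Pearson correlations over at least 7 shared replicates, out of 1512 probes compared for Mag and Sox10, 2557 for the NM_018760 probe of Slc4a4 and 2506 for Gpr37l1. Fbxw4 came first for Mag (r = 0.96), followed by Tmem53 and Pglyrp2. Epop came first for Sox10 (r = 0.94), followed by Mcf2 and Slc30a3. Mrpl3 came first for Slc4a4 (r = 0.94), followed by Lmod1 and Ilf2, and Mgrn1 for Gpr37l1 (r = 0.96), followed by Rpl8 and Spock2. These are descriptions, with no test. No cell type can be read from the highest of so many correlations over 7 or 8 replicates. C1qc and the AF141934 probe of Slc4a4 had too few replicates for such a search. Among the members themselves, over 6 or 7 shared replicates, r ran from -0.71 (Sox10 with Gpr37l1) to 0.47 (the NM_018760 probe of Slc4a4 with Gpr37l1).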

How the data were processed

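The probes and marker lists were chosen with earlier results of these data known. Per the file headers, the authors deposited for each spot and channel an intensity with the local background subtracted, and the background intensity. The authors' deposited table gives a score per spot, a log ratio whose normalisation is not stated, used as an alternative. Image software is not given in the sources used here. Channel A was taken as Cy3, as the score bears out. Were it the reverse, every direction would turn.

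Spots marked B, X, Y or Z or with no signal in a channel were left out. Log2 ratios computed from the deposited intensities were normalised in each of 3 scanner files by loess (span 0.3, 4 iterations), given as tumour over PBS and averaged across files, then across spots of 1 entry and across arrays. A dye-swapped replicate needed both orientations. Each probe was fitted with a mean per time and dye orientation, with limma 3.58.1 (squeezeVar) under R 4.3.3. The fit was run on simulated data with a smaller spread than these data and larger shifts than the fitted ratios of the 5 genes. That run therefore does not show how well changes of the size described here are found. Arrays with a mean rho under 0.1 were left out, a limit set with array values known. Besides the 5 genes, up to 4 genes per list with the smallest p were named, and Snap25 and Nefl after their values were seen. The number of arrays limits the precision. The alternatives tried changed background, normalisation, dye term, dim spots, arrays, values, RNA type, layout, scanner files and replicates. Probe symbols came from the platform tables, updated by gene identifier.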

Additional observations from a re-analysis of the deposited data

How the results depend on the processing

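Of 302 values of the 6 probes under the alternatives, 276 kept their sign and 26 turned. In each of them the adjusted p stayed above the threshold (lowest 0.451). Without loess Gpr37l1 stood at -0.12 at 18 h, 0.11 at 72 h and -0.011 at 192 h, and Sox10 at -0.073 at 72 h and 0.13 at 192 h. Without the dye covariate Mag at 72 h was at 0.061, and with the deposited scores at 0.0048. Without background correction Sox10 at 72 h was at -0.016, and with all 23 arrays at -0.078. With total RNA alone, values at 72 h were 0.10 for Mag, -0.13 for Sox10 and 0.073 for Gpr37l1, and the mean of the times for Gpr37l1 was 0.051. With print layout 5 alone Gpr37l1 was at 0.073 at 72 h, -0.044 at 192 h, 0.014 for the mean and -0.057 for 192 h minus 18 h. The cause of these turns was not tested, and each main value lay within 2 standard errors of 0.

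Leaving out 1 replicate at a time gave -0.39 to 0.10 for Mag at 72 h and -0.13 to 0.33 for Sox10 at 72 h. For Gpr37l1 it gave -0.46 to 0.073 at 72 h, -0.0023 to 0.15 at 192 h, -0.12 to 0.058 for the mean and -0.015 to 0.14 for 192 h minus 18 h. For the NM_018760 probe of Slc4a4 at 18 h the range was -0.50 to -0.36 (lowest adjusted p = 0.557). For C1qc at 192 h, leaving out one of its own 3 replicates left no residual and gave no test. Where 1 replicate is left at a time, it is assumed to vary like the others.

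Counts of called probes over the whole arrays were low under each alternative. At 18 h 1 probe passed with dim spots left out and 1 with layout as a random block (correlation -0.08), and leaving out replicates gave 0. At 72 h the count was 0 without background correction, without the dye covariate, without dim spots and without the deviating scanner file (an alternative added after seeing the data), 7 without loess, 3 with all arrays, 7 with total RNA, 2 with layout 5 and 0 to 9 when replicates were left out. At 192 h it was 0 without background correction, the dye covariate or dim spots, with all arrays, scores, total RNA or layout 5, and 0 to 1 with replicates left out. For the mean it was 3 with all arrays, 1 with total RNA, 1 with layout 5 and 0 to 4 with replicates left out. For 192 h minus 18 h it was 0 without background correction, the dye covariate, dim spots or the deviating file, with all arrays, scores, total RNA or layout 5, 2 with layout as a block and 0 to 1 with replicates left out. The replicate block gave 0 calls there. Same-numbered replicates correlated at -0.12 to 0.01 in their deviations over 6 pairs. This cannot decide whether the numbers pair the samples. Even swapped arrays of the same replicate shared their sign in only 45.4% of probe values. Total RNA covers layouts 4 and 5, which is why both were run. Few arrays, spots at medians of 1.91 to 4.63 times the background and opposed dye swaps limit these data.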
